A study of Oryza sativa with 2 samples.

Results

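The genes described here are the cell cycle and DNA replication genes of rice, Oryza sativa, in seedlings given jasmonic acid, a hormone of plant defence that is produced after injury. They were chosen by name: a gene entered when its symbol or a synonym began with a prefix for cyclins of type A, B, D, H or T, kinases CDKA to CDKE, KRP, E2F, MCM, PCNA, ORC, RPA or RBR. The rule found 47 genes on 51 array features, of 15798 genes on 17839 features that carry 1 gene each. All came in by synonym, none by symbol, and no measured feature carried an E2F name. The set was proposed with earlier results of these data known, so its position among all genes is a description and not independent evidence.

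Seedlings exposed to 5 µM jasmonic acid were set against unexposed seedlings grown on the same MS medium, on 2 two-colour oligonucleotide arrays. On array 1 the exposed RNA carried Cy5 and the unexposed RNA Cy3, and on array 2 the dyes were the other way round. The labels give the pair a single replicate number, so it counts as 1 replicate, with no measure of the spread between plants and no p-value. The labels name shoots in one place and whole seedlings in another, and give 7 days both as an age and as a length of exposure.

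Cell division in plants runs on cyclins that bind cyclin-dependent kinases. D-type cyclins with CDKA release the transition into DNA synthesis by acting on the retinoblastoma-related protein RBR, and A- and B-type cyclins with CDKA and the plant-specific CDKB carry the cell through DNA synthesis and into mitosis. KRP proteins inhibit these kinases, while ORC, MCM, PCNA and RPA proteins open and copy the DNA. Jasmonates are known to slow growth and cell division in seedlings of several plants.

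Values are log2 ratios of the 2 channels of a spot, and the numerator is not stated in the sources used here. The swap mean is the array 1 value minus the array 2 value, divided by 2. If both columns are Cy5 over Cy3, a negative swap mean is a lower level in exposed seedlings. If both are Cy3 over Cy5 it is a higher level there, and if both are exposed over unexposed the swap mean holds dye effects only. No direction of the treatment is therefore given, and a gene is said to lie in the array 1 direction (positive) or the array 2 direction (negative). JAZ8, a repressor of jasmonate responses whose transcript is a known early target of the hormone, serves as a point of comparison with 1.82 on array 1 and −2.32 on array 2, with a swap mean of 2.07.

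The array medians over all spots were −0.30 on array 1 and −0.32 on array 2, and a centred value is a ratio minus this median. Spot brightness, a lower bound on signal taken from the whole-number ratio behind each value, had a median of 4.97 (log2) over the 47 genes and 5.47 over all genes. A ratio that reduces to a simple fraction gives a low brightness whatever the signal. Of the 47 genes, 32 were below the median brightness of all genes. The centred plain mean of both arrays holds no treatment if both columns are 1 dye over the other, and its scaled median absolute deviation, called the plain-mean spread below, serves as a yardstick. Over 4 equal brightness bins of genes, from dimmest to brightest, this spread was 0.39, 0.21, 0.16 and 0.15. Whether a gene is within or beyond this spread, and by what multiple, is taken from the swap mean of its centred values. The swap mean of all genes spread by 0.19, 0.15, 0.16 and 0.20 in these bins. In the 2 dimmer bins the yardstick is thus wider than the swap mean's own spread, so it is no measure of the error of the swap mean there, and a gene within it is not shown to lie within error. Gene names rest on a rearranged spot grid that was found from the data and is stated by no source.

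No gene of the 47 passed 2-fold with opposite signs on the exchanged arrays, but most leaned in the array 2 direction, opposite to JAZ8. The median swap mean was −0.10 over the 47 genes and 0.01 over all genes, and 37 of the 47 lay below the median of all genes, where 50.0% of all genes lie. On array 1 the centred median of the 47 was −0.15, against 0.03 over all genes. On array 2 the medians were 0.12 over the 47 and 0.02 over all genes. Brightness moved with the values on both arrays. Among genes below the median brightness the centred array 1 median was −0.20 over the 32 members and −0.16 over all genes, and above it 0.12 over the 15 members and 0.18 over all genes. On array 2 it was 0.07 over the 32 dimmer members, against −0.18 over all dimmer genes, and 0.25 over the 15 brighter members, against 0.18 over all brighter genes. The classes had different counts, though differences between classes were not tested. All 7 A- and B-type cyclins, all 3 CDKA and CDKB kinases, all 4 KRP inhibitors and all 9 D-type cyclins lay below the median of all genes, as did PCNA. So did 5 of 7 RPA, 4 of 6 MCM and 2 of 3 ORC genes, and 2 of the 6 genes of the CYCH, CYCT and CDKC to CDKE class. By brightness bin, below the median of all genes were 12 of the 14 members in the dimmest bin, 16 of 18 in the next, 7 of 12 in the third and 2 of 3 in the brightest. Of all genes in these bins, 46.8%, 49.6%, 51.1% and 52.4% lay below it.

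**Figure D1:**
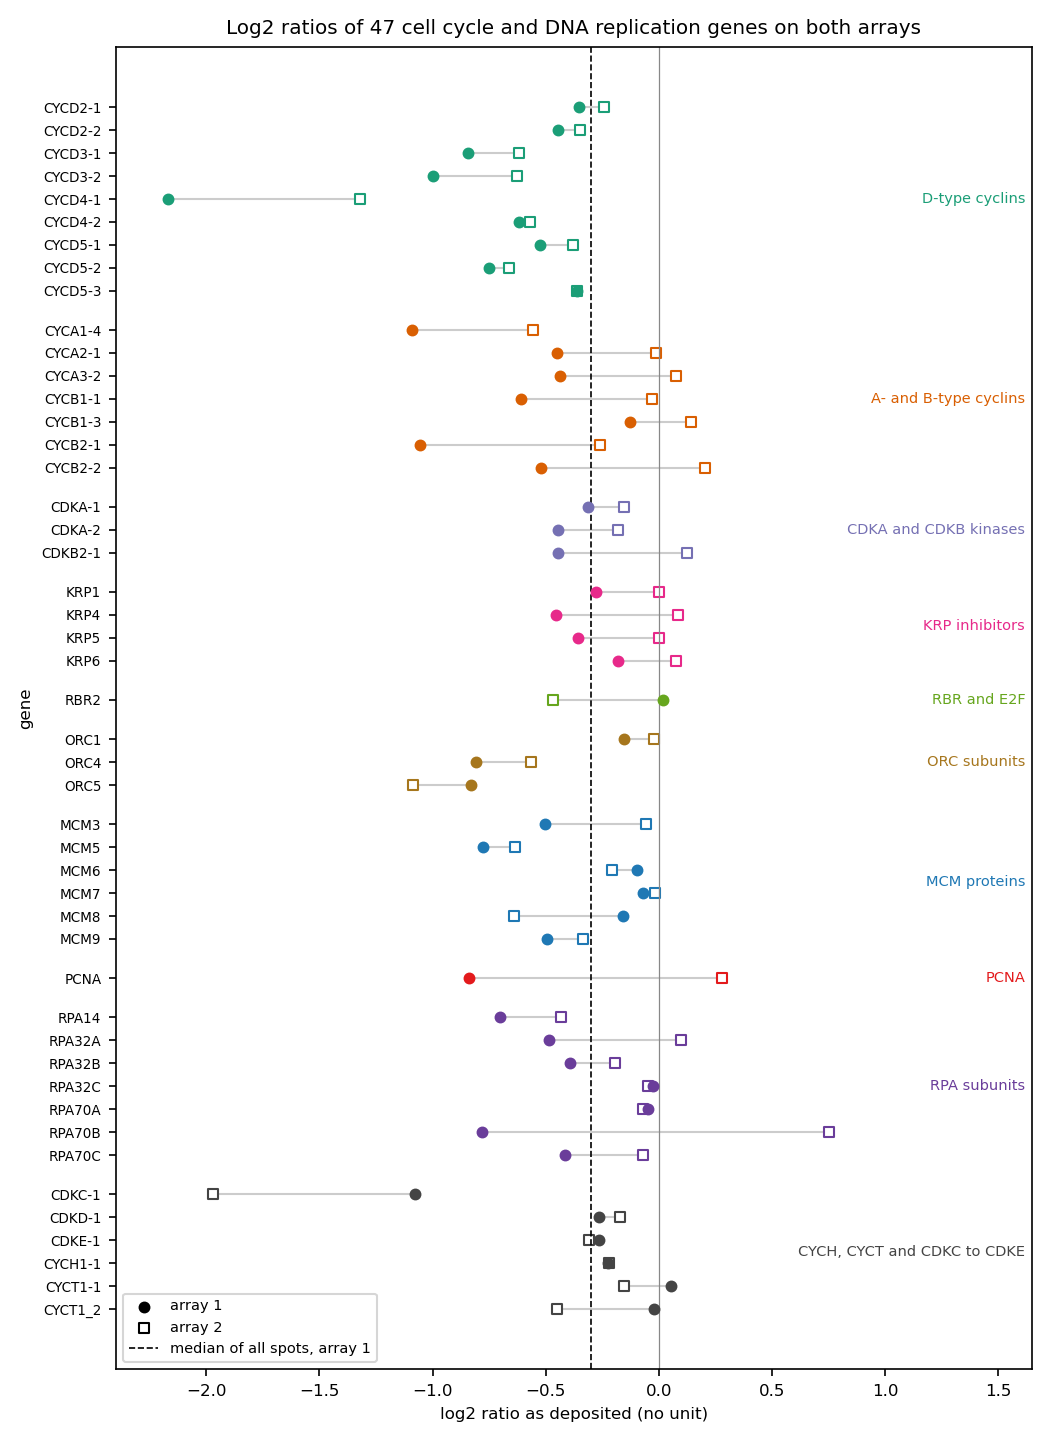
Log2 ratios as deposited (horizontal axis) of the 47 genes (vertical axis), grouped by class; filled circles are array 1, open squares array 2, and the dashed line is the array 1 median of −0.30. Of the 47 genes, 36 have their square to the right of their circle and 10 to the left. The A- and B-type cyclins, KRP inhibitors, PCNA and RPA70B are among the 36, and RBR2, MCM8 and CDKC-1 among the 10.

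Counts on the 2-fold threshold were close to the background or at 0. Lower by 2-fold or more on both arrays were 2 of the 47 genes, CYCD4-1 and CDKC-1, against 3.85% of all genes. Higher by 2-fold or more on both arrays were 0 of the 47 and 0% of all genes. On the array 1 side (2-fold above 1 on array 1 and 2-fold below 1 on array 2) stood 0 of the 47 and 0.500% of all genes, and on the array 2 side, the opposite case, 0 of the 47 and 0.165% of all genes. A weaker sorting, added after the values were seen, asked for signs alone. Below the array median on array 1 and above it on array 2 were 17 of the 47 genes, or 36.2%, against 17.5% of all genes. The opposite signs were found in 3 genes, RBR2, MCM8 and CYCT1_2, or 6.38%, against 19.1% of all genes. Below the median brightness the first pattern held for 12 of 32 members, against 14.4% of genes, and above it for 5 of 15 members, against 20.6%.

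**Figure D2:**
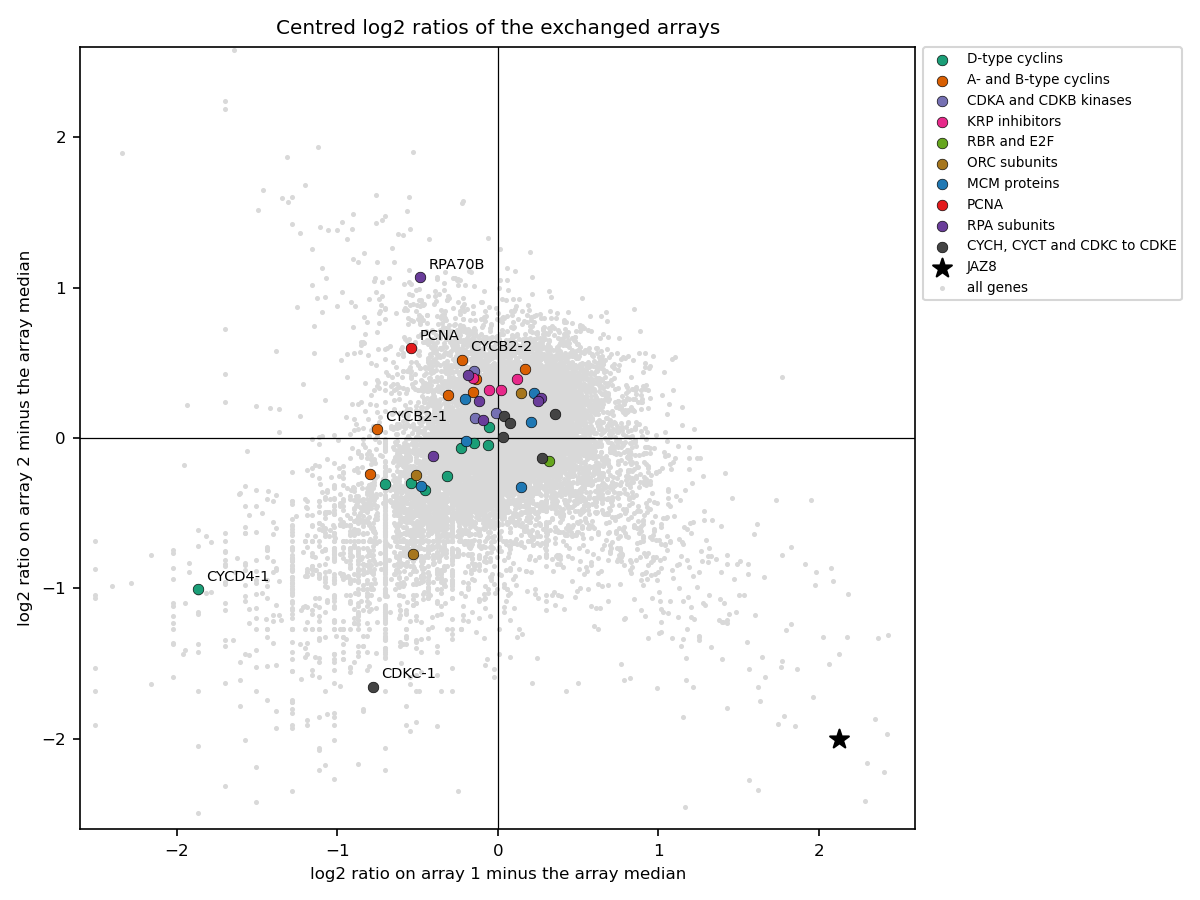
Centred log2 ratio on array 1 (horizontal) against array 2 (vertical), with the 47 genes coloured by class, JAZ8 as a star and all genes in grey; 28 genes lie outside the axes. RPA70B and PCNA stand in the upper left quadrant, JAZ8 in the lower right, and CYCD4-1 and CDKC-1 in the lower left, low on both arrays.

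D-type cyclins, which couple growth and hormone signals to the start of DNA synthesis, had medians below the array median on both arrays. Over their 9 genes the median was −0.62 on array 1 and −0.57 on array 2, and the median swap mean was −0.06. All genes below the median brightness, where 8 of the 9 lie, had medians of −0.46 and −0.50, so low values on both arrays are shared by dim genes at large. CYCD4-1 had −2.17 on array 1 and −1.32 on array 2, with the lowest brightness averaged per gene of the 47, and its values correspond to 2/9 and 2/5. CYCD3-2 had −1.0 and −0.63, with a swap mean of −0.19. CYCD3-1 had −0.84 and −0.62, with a swap mean of −0.11. These are the most negative swap means of the class after the −0.42 of CYCD4-1, and all 3 genes were below the array median on both arrays. At the other end, CYCD5-3 had the same ratio, 7/9, on both arrays and a swap mean of 0. CYCD4-2 had −0.62 and −0.57, with a swap mean of −0.02. CYCD5-2 had −0.75 and −0.66, with a swap mean of −0.04. Both were low on each array by nearly the same amount. CYCD2-1 had −0.35 and −0.24, CYCD2-2 −0.45 and −0.35, and CYCD5-1 −0.53 and −0.38, and their swap means lay between −0.07 and −0.05. CYCD2-1 was below the median on array 1 and above it on array 2. In 8 of the 9 genes the swap mean was smaller than the plain-mean spread of its brightness bin, CYCD4-1 being the exception at 1.11 times that spread. CYCD3-2, at −0.20 centred, was beyond the swap mean's own spread of 0.19 in the dimmest bin. Its ratio of 1/2 on array 1 gives a brightness of 0.5 there, against 5.44 on array 2, so its place in that bin is uncertain.

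A- and B-type cyclins, which drive DNA synthesis and the entry into mitosis, had the most negative median swap mean of the classes with more than 1 gene. Their 7 genes had swap means from −0.40 to −0.14, with a median of −0.27, and 5 of the 7 were below the median on array 1 and above it on array 2. All 7 were higher on array 2 than on array 1. CYCB2-1 had −1.05 on array 1 and −0.26 on array 2, with a swap mean of −0.40. CYCB2-2, of the same B2 group, had −0.52 and 0.20, a swap mean of −0.36. The B2 cyclins, which act at mitosis, thus had the most negative swap means of the class. CYCB1-1 had −0.61 and −0.03, with a swap mean of −0.29. CYCB1-3, of the B1 group that is transcribed around mitosis, was the least negative with −0.13 and 0.14, a swap mean of −0.14. RefSeq also lists CycB1-1 as a name of the gene called CYCB1-3 here. Among the A-type cyclins, CYCA1-4 had −1.09 and −0.56 and was low on both arrays. CYCA2-1 had −0.45 and −0.01, and CYCA3-2 −0.44 and 0.08. Their swap means were −0.27, −0.22 and −0.26, so the 3 differ in level of ratio and less in the difference between arrays. The swap means of 6 of the 7, all but CYCB1-3, exceeded the plain-mean spread of their bin, at 1.30 to 1.90 times that spread. Whether a probe also binds the transcripts of a close paralogue was not tested.

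The kinases that these cyclins bind lay in the same direction. CDKB2-1, the plant-specific kinase made in cells close to mitosis, had −0.45 on array 1 and 0.13 on array 2, with a swap mean of −0.29, which is 1.94 times the plain-mean spread of the brightest bin, where it lies. CDKA-1 had −0.31 and −0.15, with a swap mean of −0.08. CDKA-2 had −0.44 and −0.18, with a swap mean of −0.13. CDKA is present through the whole cycle. Both of its genes were within the plain-mean spread of their bins, 0.39 for CDKA-1 and 0.21 for CDKA-2. These spreads are wider than the 0.15 that CDKB2-1 exceeded, so the 3 genes are not held to the same measure. Among the genes of their own bins the swap means stood at percentile 28.3 for CDKA-1, 17.4 for CDKA-2 and 10.6 for CDKB2-1. The difference between CDKB2-1 and the CDKA genes was not tested.

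KRP inhibitors, which bind and block cyclin and CDK complexes, numbered 4 genes whose median swap mean was −0.16. KRP4 had −0.46 on array 1 and 0.08 on array 2, with a swap mean of −0.27. Like KRP5, it was below the median on array 1 and above it on array 2. KRP5 had −0.36 and 0, for a swap mean of −0.18. KRP1 had −0.28 and 0, for a swap mean of −0.14. KRP6 had −0.18 and 0.08, for a swap mean of −0.13. All 4 were thus lower on array 1 than on array 2. KRP1 and KRP5 had a ratio of exactly 1 on array 2, so their brightness there is 0 by construction. On array 1 it was 6.83 and 4.82. The place of both genes in the dimmest bin thus rests on that 0 and is no measure of their signal. KRP4 and KRP6 have 2 probes each: those of KRP4 had swap means of −0.15 and −0.39, and those of KRP6 −0.23 and −0.02. The probes of a gene had the same sign but differed by more than the 4 genes did, and only KRP4 exceeded the plain-mean spread of its bin.

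RBR2, a retinoblastoma-related protein of the family that holds E2F factors in check, lay in the array 1 direction, unlike the D-type cyclins and kinases that act on it. The difference was not tested. It had 0.02 on array 1 and −0.47 on array 2, with a swap mean of 0.24, on one of the 3 members in the brightest bin. This is the direction of JAZ8 at a far smaller size, 1.54 times the plain-mean spread of that bin. Among all genes it stood at percentile 86.4 of the swap mean.

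**Figure D3:**
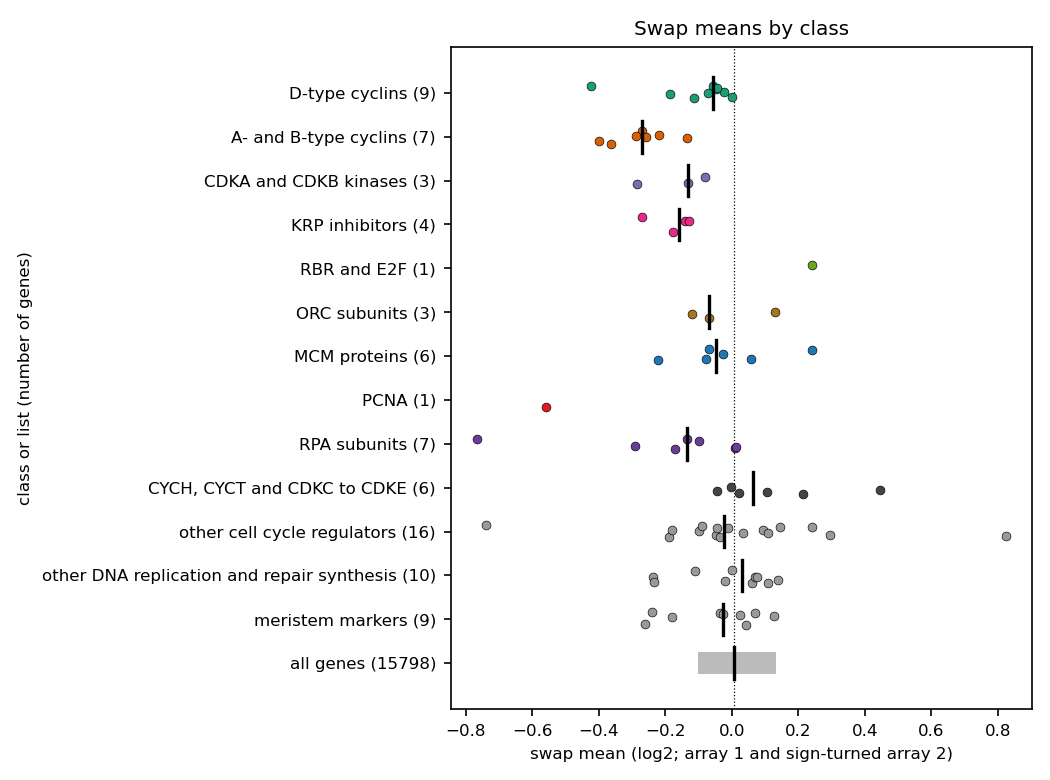
Swap means (horizontal axis, log2) by class of the 47 genes, then by lists of related genes, with the range between the quartiles of all genes as a grey bar in the last line; points are genes and black lines medians. The A- and B-type cyclins lie between −0.40 and −0.14, left of that bar, while the class of CYCH, CYCT and CDKC to CDKE is centred on 0.06.

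The DNA replication genes were divided. ORC subunits, which mark origins of replication, had swap means of −0.07 for ORC1, −0.12 for ORC4 and 0.13 for ORC5, each within the plain-mean spread of its bin. ORC1 had −0.16 and −0.02 over its 2 probes, whose swap means were −0.01 and −0.13. ORC4 had −0.81 on array 1 and −0.57 on array 2, and ORC5 −0.83 and −1.09, both on dim spots and low on both arrays. RefSeq also lists OsORC1 as a name of the gene called ORC5 here.

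MCM proteins of the replicative helicase, MCM3, MCM5, MCM6 and MCM7, had no common direction. MCM3 had −0.50 on array 1 and −0.06 on array 2, with a swap mean of −0.22, which is 1.08 times the plain-mean spread of its bin. MCM5 had −0.78 and −0.64 and was low on both arrays, with a swap mean of −0.07. MCM6 had −0.10 and −0.21, a swap mean of 0.06. MCM7, with the highest brightness averaged per gene of the 47, had −0.07 and −0.02 and a swap mean of −0.03. The 4 measured subunits of this ring thus lay between −0.22 and 0.06, and MCM3 alone exceeded its plain-mean spread. MCM8 and MCM9, relatives that act in recombination in other species, had swap means of 0.24 and −0.08. MCM8 had −0.16 on array 1 and −0.64 on array 2 and so stood with RBR2 in the array 1 direction, at 1.09 times its plain-mean spread, and MCM9 had −0.49 and −0.34.

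PCNA, the ring that holds DNA polymerases on their template, had the second most negative swap mean of the 47 genes. Its ratio was −0.84 on array 1 and 0.28 on array 2, which correspond to 19/34 and 17/14. The swap mean of −0.56 was at percentile 1.42 of all genes and 0.912 of the genes of its brightness bin. It was 2.65 times the plain-mean spread of that bin. PCNA is represented by 1 probe on a spot of brightness 4.31, so no other probe bears on it.

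RPA, the complex that coats single-stranded DNA, has a large, a middle and a small subunit, and rice has several genes for the large and the middle one. RPA70B, a large subunit, had the most negative swap mean of the 47 genes, with −0.78 on array 1 and 0.75 on array 2, or 32/55 and 133/79. Its swap mean of −0.77 was at percentile 0.589 of all genes, with 93 genes at or below it, and 4.94 times the plain-mean spread of its bin. Its ratios lay on either side of 1, as did those of PCNA. The other large subunits lay closer to 0: RPA70A had −0.05 and −0.07, with a swap mean of 0.01. For RPA70C the ratios were −0.42 and −0.07, with a swap mean of −0.17. Among the middle subunits RPA32A had −0.49 and 0.10, with a swap mean of −0.29. RPA32B had −0.39 and −0.19, with a swap mean of −0.10. For RPA32C the ratios were −0.03 and −0.05, with a swap mean of 0.01. RPA70B and RPA32A, also named RPA32-1, had the most negative swap means of the large and of the middle subunits. RPA32A, at −0.30 centred, was within the plain-mean spread of the dimmest bin (0.39) and beyond the swap mean's own spread there (0.19). Subunits that join in 1 complex were not compared as pairs, and a shared change of complex partners was not tested. RPA14, the small subunit shared by the complexes, had −0.70 and −0.43, a swap mean of −0.13.

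**Figure D4:**
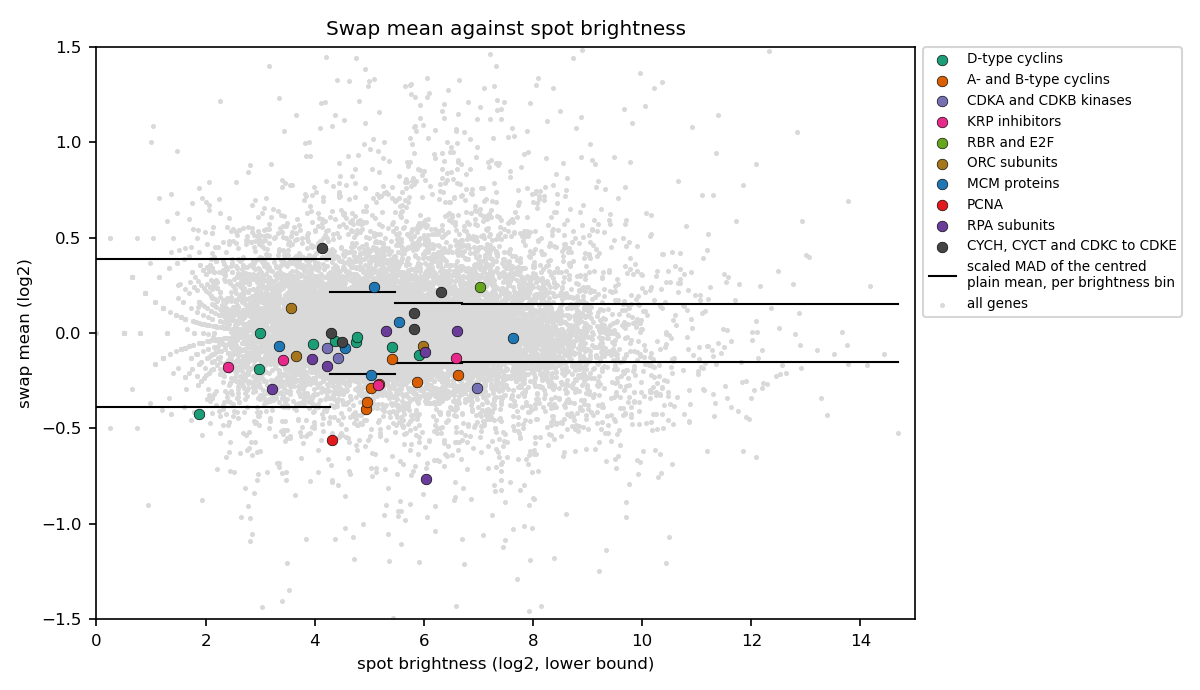
Swap mean (vertical axis, log2) against spot brightness (horizontal axis, log2) for the 47 genes by class and all genes in grey; black lines are plus and minus the scaled median absolute deviation of the centred plain mean in each bin of brightness, and 54 genes lie outside the vertical axis. RPA70B at −0.77 and PCNA at −0.56 lie farthest below the lines, and most D-type cyclins lie between them.

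The cyclins H and T and the kinases CDKC, CDKD and CDKE are named for their family but act mainly on other kinases and on transcription, and as a class they were centred slightly on the other side of 0. The median swap mean of these 6 genes was 0.06, and 4 of 6 were above the median of all genes. CDKC-1, which with T-type cyclins phosphorylates RNA polymerase, had −1.08 on array 1 and −1.97 on array 2. Its swap mean of 0.45 was the highest of the 47 genes, but both ratios were low and its spot was dim, at 1.12 times the plain-mean spread of the dimmest bin. CYCT1_2, also listed as CycT1;2, had −0.02 and −0.45, and CYCT1-1 had 0.05 and −0.16. Both T-type cyclins lay in the same direction as CDKC-1, with swap means of 0.21 and 0.11. CYCT1_2 was at 1.31 times the plain-mean spread of its bin, but CYCT1-1 was within it, at 0.62 times. CYCT1-1 was above the array median on both arrays, and CDKC-1 was below it on both. The kinase CDKD-1, which activates other CDKs, and its partner CYCH1-1 had swap means of −0.05 and 0, with −0.26 and −0.17 for CDKD-1 and −0.22 on each array for CYCH1-1. CDKE-1, of the Mediator complex, had −0.27 and −0.31 and a swap mean of 0.02, but its 2 probes had plain means of 0.08 and −0.66.

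Measured against the plain-mean spread of their brightness bin, 12 of the 47 genes lay beyond it in the array 2 direction, or 25.5%, against 12.8% of all genes. They were 6 of the A- and B-type cyclins together with CDKB2-1, CYCD4-1, KRP4, MCM3, PCNA and RPA70B. In the array 1 direction 4 genes lay beyond it, RBR2, MCM8, CDKC-1 and CYCT1_2, or 8.51%, against 15.2% of all genes. Only 2 genes, RPA70B and PCNA, were beyond 2 times that spread, where 10.4% of all genes lay. This comparison was added after the values were seen.

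Other genes of the pathway were spread about the median of all genes. Of 16 further regulators matched by name, 9 lay below the median swap mean of all genes, and their median was −0.02. Of the 3 P-type cyclins, CYCP4-1 had a swap mean of 0.03 and the others stood at both ends of the list. CYCP3-1 had −1.24 on array 1 and 0.24 on array 2, and CYCP2-1 had 0.49 and −1.16. Their swap means were −0.74 and 0.82, in opposite directions. CYCF2-2 with −1.42 and −1.04 and the meiotic cyclin SDS with −1.09 and −1.30 were 2-fold lower on both arrays. MYB3R-2, of the MYB factors that act on genes of mitosis, had 0.05 and 0.42, a swap mean of −0.18. CDKF-4 and CDKF-3, of the kinases that act on other CDKs, had swap means of 0.24 and 0.30.

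Of 10 further genes of DNA replication and repair, 5 lay below the median of all genes and none passed 2-fold on both arrays. POLD2, a subunit of DNA polymerase delta, had −0.81 on array 1 and −0.33 on array 2, and RFC4, of the complex that loads PCNA, −0.87 and −0.40. Their swap means were −0.24 and −0.23. RFC2 followed with −0.11, while RFC3 had 0.14, GEN2 0.11 and TOP3B 0.07. The loader subunits thus lay on both sides of 0. The single histone gene matched by name, CenH3 of the centromere, had −0.92 and −0.39 on a dim spot, with a swap mean of −0.27.

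Ratios give no level of a gene, so the makeup of the tissue could not be read from markers, and a change in the number of cells of a type cannot be told apart from a change in RNA per cell. Of 9 meristem markers, 5 lay below the median swap mean of all genes, with a median of −0.03 and a range from −0.26 to 0.13. Lowest of the 9 was OSH1, a homeobox gene of the shoot meristem, with −2.25 on array 1 and −1.73 on array 2. Its swap mean of −0.26, on a dim spot, was within the plain-mean spread of the dimmest bin (0.39). It was beyond the swap mean's own spread there (0.19). The homeobox genes OSH71 and OSH15 of the same list had swap means of 0.02 and 0.04. Beyond the plain-mean spread of their bin in the array 2 direction were 2 of the 9, or 22.2%, against 12.8% of all genes. These were WOX10 and WOX5, with swap means of −0.24 and −0.18. In the array 1 direction 0 of the 9 lay beyond it, against 15.2% of all genes. Of 8 markers of photosynthetic tissue 5 lay below the median of all genes, from petC at −0.65 to CAB2R at 0.69. Of 3 root markers 2 did, from −0.10 to 0.12. The root marker Lsi2 had −1.17 and −1.14, so it was 2-fold lower on both arrays. The part of these markers in the values of the cell cycle genes was not tested.

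Several of the 47 genes are close in the genome. In the gene order of assembly ASM3414082v1, MCM6 and CYCA1-4 lie 4 places apart on chromosome 5 and had swap means of 0.06 and −0.27. CYCD3-1 and MCM9 lie 6 places apart on chromosome 6 and had −0.11 and −0.08. CDKC-1 and CDKD-1 lie 16 places apart on chromosome 5 and had 0.45 and −0.05. Of these 3 pairs only CYCD3-1 and MCM9 had close values.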

How the data were processed

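RNA of jasmonic acid-exposed and unexposed rice seedlings was compared on 2 arrays. The deposited values are log10 ratios, 1 per spot and array for 22575 spots, made with a GenePix scanner and GeneSpring version 4 per the labels. The numerator, the background correction and any filter were not stated there. The values are not centred (medians −0.0902 and −0.0954) and were turned to log2. Spots were paired with the annotation through a grid of 215 lines of 105 spots. In it 0 of 228 control-like spots fall on features with 1 gene, and by spot number 84.7% do. All 17839 such features matched RefSeq (assembly ASM3414082v1) by gene number, and probes of a gene were averaged. Brightness is the log2 geometric mean of the simplest whole-number fraction within 6e-10 of each log10 value. The calculation was tested on simulated data. With 1 replicate there is no test, and the number of arrays limits precision.

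Members and lists were chosen with earlier results of these data known. Named genes are all members of classes of up to 6 genes. In larger classes and in the lists they are the 3 highest and 3 lowest swap means and those past 2-fold on both arrays. For the marker lists fewer genes are named than this rule gives. The other members were added after values were seen. Of the list matches by name, 3 that were another kind of gene were left out. Alternatives were centring, scaling, each array alone, other folds, single features, dim spots left out and spot numbers as deposited. Python 3.11.15, numpy 2.4.6 and pandas 2.3.3 were used.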

Additional observations from a re-analysis of the deposited data

How the results depend on the processing

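The median swap mean of the 47 genes, −0.10, was −0.11 with centring or scaling, −0.0797 without the dimmest 25% of spots and −0.0059 with names by spot number. For an array alone it was −0.45 (array 1) and 0.19 (array 2, turned), values that hold the array offset; centred they were −0.15 and −0.12, alternatives added after seeing the data. The median plain mean, −0.28, was 0.0285 centred, 0.0217 scaled and 0.12 for array 2 alone and centred. The count lower by 2-fold on both arrays, 2, was 7 at 1.5-fold, 0 at 3-fold, 1 centred and 0 scaled. It was 5 for array 1 alone, 3 for array 2 alone, 1 for array 1 alone and centred, and 1 without dim spots. On the array 1 side 0 became 3 for array 2 alone, 2 for it centred and 1 by spot number; on the array 2 side 0 became 1 at 1.5-fold, 5 for array 1 alone, and 1 for either array centred; higher on both, 0 became 1 for array 2 alone and centred. The 17 genes below the median on array 1 and above it on array 2 became 7 by spot number. Of 10 class medians, all 10 moved by less than the arrays differed under centring, scaling and single features. Without dim spots 9 did, by spot number 5, and for each array alone 1. For array 1 and array 2 alone and centred it was 9 and 7. This limit is widest where the arrays differ most, and a median that changes sign can stay within it. Centred, the D-type cyclin median was −0.32 for array 1 alone and 0.25 for array 2 alone, turned. The ORC median was −0.51 and 0.25, and that of the CYCH, CYCT and CDKC to CDKE class 0.06 and −0.05. The other classes had the same sign on both. Matching by symbol alone found 0 genes. The cause of these changes was not tested. The plain mean of both arrays spread more on dim spots, 0.39 in the dimmest bin and 0.15 in the brightest; the swap mean did not, 0.19 and 0.20. No paired analysis was possible because 1 replicate number covers the whole series.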
